A study of Mus musculus with 6 samples.

Results

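The circadian clock repressors and output factors followed here were 10 genes, Per1, Per2, Per3, Cry1, Cry2, Nr1d1, Nr1d2, Dbp, Tef and Hlf. They were chosen by name, and every probe set that the platform annotation assigned to exactly 1 of these symbols was taken, which gave 22 of 45101 probe sets and 10 of 18194 measured genes. RNA came from quadriceps muscle of C57/Bl6 mice aged 2 months and was read on 1 array per sample. The Pofut1Knockout group held 3 samples that carried a skeletal α actin cre transgene and floxed alleles of Pofut1 (flox/flox), the gene of an enzyme that adds O-linked fucose to proteins such as the Notch receptors. The Pofut1Control group, also of 3 samples, had this transgene beside wild-type Pofut1, so Cre was present in both groups. The actin promoter drives Cre in muscle fibres, and vessels, fat, nerve and immune cells in the tissue are not its target. The hour of tissue collection is not given in the labels, so a difference in it between samples was not tested.

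In the mammalian clock the activators Clock and Arntl (also called Bmal1) drive genes through E-box elements, and the Per and Cry proteins made from those genes return to the nucleus and repress the pair. Nr1d1 and Nr1d2, the REV-ERB nuclear receptors, repress Arntl through ROR elements, and the PAR bZIP factors Dbp, Tef and Hlf carry the rhythm to output genes through D-box elements. In skeletal muscle, as in most tissues, transcripts of Dbp, the Per genes and the Nr1d genes swing strongly over the day, and Arntl swings in the opposite phase, so that the levels in a sample depend on the hour at which it was taken.

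These elements were looked for as letters in the RefSeq promoter windows of GRCm38.p6, which run from 250 bases before to 50 bases after a gene's start. Windows were found for 9 of the 10 genes. The sequences below show how the elements lie in Per, Cry and PAR bZIP members and in Arntl, the gene on the other side of the loop, with the matched letters in capitals. Per1, Tef and Arntl have 2 windows each, at different starts, and those shown hold a match. The Per1 window shown is chr11:69098699-69098998 on the plus strand, the Cry1 window chr10:85185005-85185304 on the minus strand, the Per3 window chr4:151044616-151044915 on the minus strand, the Tef window chr15:81802423-81802722 on the plus strand, and the Arntl window chr7:113207261-113207560 on the plus strand. The other window of Per1 and that of Arntl held 0 matches, and the other window of Tef held 1 E-box. All are written 5′ to 3′ along the gene.
Per1: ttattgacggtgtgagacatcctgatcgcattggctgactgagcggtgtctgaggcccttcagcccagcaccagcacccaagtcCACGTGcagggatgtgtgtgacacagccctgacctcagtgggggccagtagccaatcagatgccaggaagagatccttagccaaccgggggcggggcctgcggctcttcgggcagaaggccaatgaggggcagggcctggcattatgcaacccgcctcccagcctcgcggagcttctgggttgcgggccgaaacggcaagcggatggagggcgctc
Cry1: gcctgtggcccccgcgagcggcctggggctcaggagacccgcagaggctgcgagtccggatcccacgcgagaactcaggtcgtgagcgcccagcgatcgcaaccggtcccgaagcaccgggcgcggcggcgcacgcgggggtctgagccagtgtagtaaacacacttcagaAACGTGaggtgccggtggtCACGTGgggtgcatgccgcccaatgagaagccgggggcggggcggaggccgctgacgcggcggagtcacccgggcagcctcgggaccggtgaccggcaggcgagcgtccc
Per3: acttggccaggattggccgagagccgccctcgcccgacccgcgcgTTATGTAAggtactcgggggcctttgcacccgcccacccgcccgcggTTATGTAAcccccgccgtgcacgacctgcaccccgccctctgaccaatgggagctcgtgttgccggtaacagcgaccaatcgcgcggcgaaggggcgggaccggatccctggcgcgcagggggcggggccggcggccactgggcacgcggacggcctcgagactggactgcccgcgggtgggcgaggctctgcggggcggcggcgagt
Tef: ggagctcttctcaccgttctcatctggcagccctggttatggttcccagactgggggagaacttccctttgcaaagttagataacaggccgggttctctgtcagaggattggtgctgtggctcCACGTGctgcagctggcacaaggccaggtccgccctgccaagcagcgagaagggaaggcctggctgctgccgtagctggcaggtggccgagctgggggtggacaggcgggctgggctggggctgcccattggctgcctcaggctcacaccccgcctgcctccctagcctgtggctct
Arntl: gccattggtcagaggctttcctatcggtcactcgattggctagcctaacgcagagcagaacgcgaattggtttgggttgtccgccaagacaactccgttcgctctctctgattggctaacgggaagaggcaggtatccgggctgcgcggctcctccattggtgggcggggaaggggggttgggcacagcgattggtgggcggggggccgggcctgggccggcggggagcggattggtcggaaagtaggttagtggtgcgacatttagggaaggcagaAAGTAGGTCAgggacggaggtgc
The capitals mark an E-box in Per1 and Tef, an E-box and an E-box-like element in Cry1, 2 D-boxes in Per3 and a ROR element in Arntl.

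Both strands were searched and no 2 matches of different motifs overlapped in these windows. The E-box, CACGTG, was present in 3 of 9 members (Per1, Cry1 and Tef), and in 8.09% of the 27025 genes with a window. The E-box-like CACGTT was present in 3 of 9 members (Cry1, Cry2 and Nr1d1), and in 5.44% of all genes. The D-box, TTANGTAA, was found in Per3 alone among the members and in 2.72% of all genes. A cAMP response element, TGACGTNA, lay in the Hlf window and in 3.36% of all genes. The ROR element, searched as AGGTCA with a T directly before it and an A 3 bases before that T, was in 0 of 9 members and in 0.829% of all genes. A match describes letters in these windows and is not evidence of binding.

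The arrays differed in a measure of RNA integrity. The array labelled control replicate 3 correlated with the other arrays at 0.940 to 0.945 over all genes, and its 3′ over 5′ ratio for Gapdh, a measure of RNA integrity and cDNA length, was 10.5. That ratio was 3.70 in knockout replicate 2 and 1.73 to 1.97 in the remaining 4 arrays. The X-linked Xist and the Y-linked Eif2s3y gave a female pattern in knockout replicate 2 and control replicate 2 and a male pattern elsewhere. Pofut1 itself read 220.1, 231 and 194 in the knockout arrays, against 301, 379.8 and 90.6 in the control arrays, so the lowest value lay in the array labelled control replicate 3 and went against its label. The fold change of each member's brightest probe set is therefore given with and without that array. All 12 defining skeletal muscle markers were above background, which was set at an intensity of 108, the 95th percentile of 32 genes restricted to other tissues (2 of these genes had a mean above it).

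None of the 10 members passed the test between genotypes. Limma with Benjamini-Hochberg adjustment over 18194 genes called 0 members, and the background share of genes called was 0%. The adjusted p of the members ran from 0.971 to 0.995. Per1 and Dbp, 2 of the 10, had an unadjusted p under 0.05 and did not overlap between the groups. Among all genes 2.58% had such a p and 9.01% had no overlap. In the knockout 4 members had higher values and 6 lower ones, with a median log2 fold change of -0.048, against -0.0086 over all genes. With the array labelled control replicate 3 left out the counts were 3 higher and 7 lower, with a median of -0.21, against -0.0042 over all genes. Genes with a mean above background, as all members were, also shifted in that fit, with 3105 of 8589 higher and a median of -0.074. In that fit 0 members passed (lowest adjusted p 0.802 in limma), and 1 member, Per3, had an unadjusted p under 0.05, beside 5.99% of all genes. Whether each sample was a separate animal is not stated in the labels, so a p-value here reflects the spread among these samples, which may be partly technical. With 3 against 3 arrays an exact permutation test cannot go below 0.1.

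**Figure D1:**
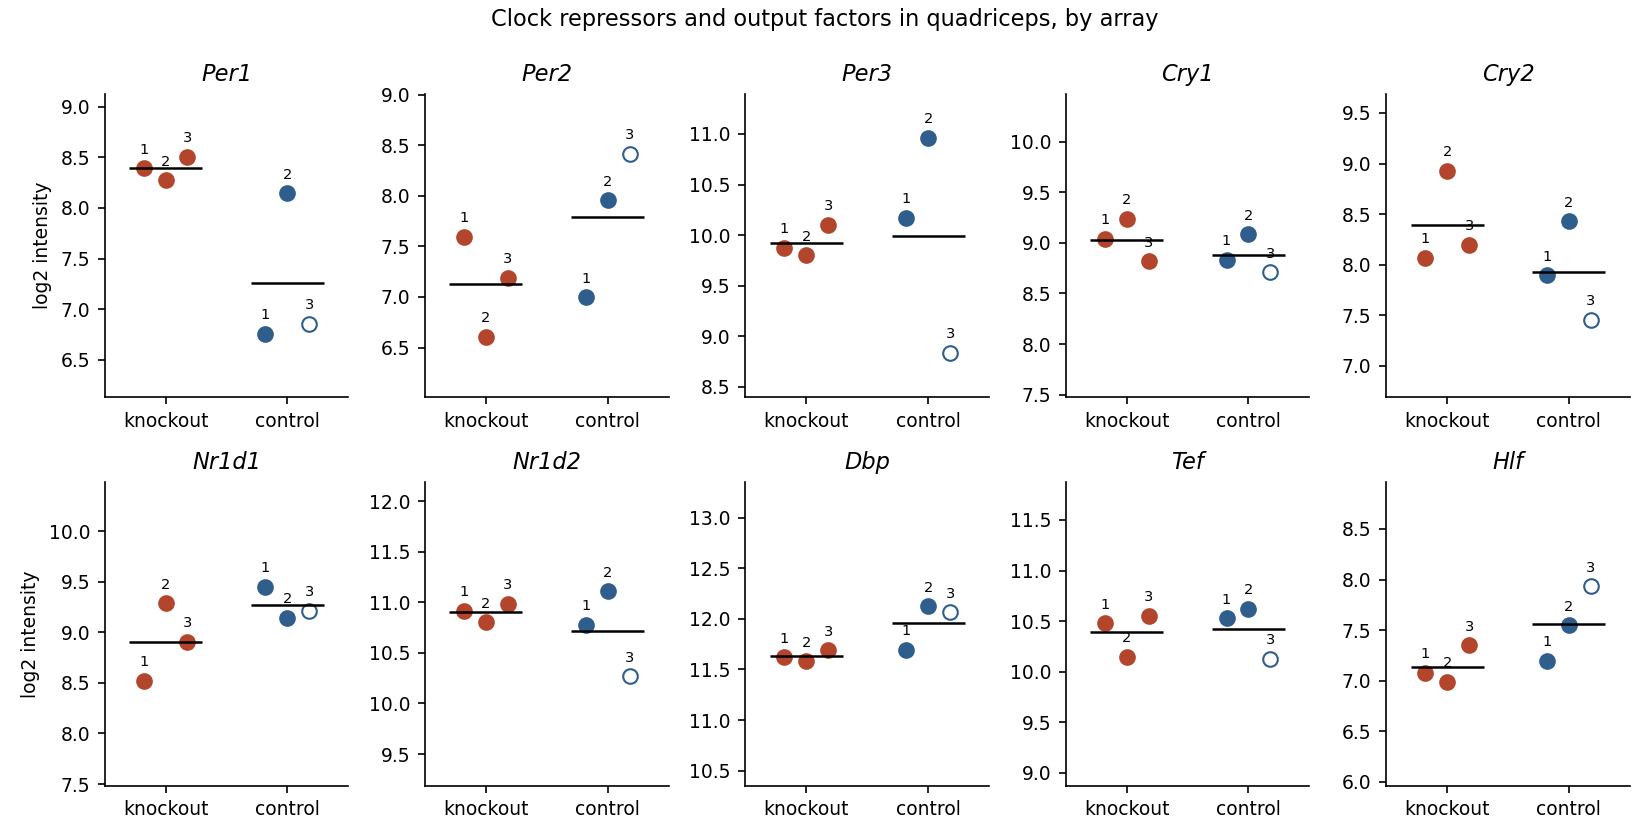
Each panel shows the log2 intensity of 1 gene in every array, with the replicate number above each point, the group mean as a line, the same span of 3 log2 units on every axis, and the array labelled control replicate 3 as an open circle. Per1 is the panel in which the 3 knockout points lie together above all control points, and Dbp the one in which they lie together below them.

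Per1, a period gene that is also induced rapidly by glucocorticoid and cAMP signals, had the highest log2 fold change of the 10. Its single probe set read 336, 309.7 and 363 in the knockout arrays, against 108, 283 and 116 in the control arrays. The knockout values lay close together and above all control values, and among the controls replicate 2 stood near the knockout arrays while replicates 1 and 3 were low. Such separation in the higher direction was found in 3.33% of all genes. The log2 fold change was 1.14 ± 0.38 (SE; 95% confidence interval 0.23 to 2.04), which is 2.20-fold, with a limma unadjusted p of 0.0208 and an adjusted p of 0.971. It was 0.94 ± 0.39 (unadjusted p 0.0509, adjusted p 0.802 in limma) without the array labelled control replicate 3. The exact two-sided permutation p was 0.1, the smallest the design allows.

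The difference in Per1 was larger between the arrays with a male pattern, where knockout replicates 1 and 3 stood 3.12-fold above control replicates 1 and 3, than between the single pair with a female pattern, at 1.09-fold (309.7 in knockout replicate 2 against 283 in control replicate 2). A limma interaction of genotype with sex pattern, added after these values were seen, gave -1.51 ± 0.48 on the log2 scale (female minus male) with an adjusted p of 0.922, and 0 genes passed it. Both male controls were low in Per1, at or just above the background intensity of 108, where differences are compressed.

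Markers of other cell types were set beside these values. The 6 endothelial markers, all above background, summed to an intensity of 2041 to 2176 in the knockout arrays, against 1774 to 1948 in the control arrays. Of the 7 measured adipocyte markers 6 were above background (Lep was not), and their sum was 13278 to 17272 in the knockout, against 10796 to 12739 in the control. The 6 slow-fibre markers summed to 6489 to 11068 in the knockout and to 797 to 10769 in the control. Control replicate 1, the array lowest in Per1 (108), was the one at 797. Control replicate 3, nearly as low in Per1 (116), was the one at 10769. The 12 defining skeletal muscle markers summed to 110877 to 119416 in the knockout, against 105207 to 110386 in the control. The endothelial, adipocyte and skeletal muscle sums did not overlap between the groups, while the mean log2 level of the adipocyte and skeletal muscle markers did overlap. Sums of smooth muscle and pericyte, macrophage, nerve and Schwann cell, fibroblast and erythroid markers overlapped. The mean log2 level of the smooth muscle and pericyte markers did not, at 8.52 to 8.70 in the knockout and 8.26 to 8.49 in the control. How often other sets of genes separate was not counted. The part of these cell types in the differences of Per1 and Dbp was not tested. In bulk tissue, fewer cells of a type and less RNA per cell cannot be told apart.

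Per2, a paralogue of Per1 that mice need for a stable rhythm, had the opposite sign. Its brightest probe set read 193, 97.3 and 146 in the knockout arrays and 128, 248 and 341.5 in the control arrays. The groups overlapped, since control replicate 1 lay below knockout replicates 1 and 3. The log2 fold change was -0.66 ± 0.43 (SE; adjusted p = 0.971 in limma), and without the array labelled control replicate 3, the highest of the 6, it was -0.35 ± 0.39. The other 2 probe sets of Per2 read 41.4 to 61.0 and were below background in every array.

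Per3, a period gene whose loss leaves a largely intact rhythm in mice, showed the widest span of any member. It read 939.6, 892 and 1099 in the knockout arrays and 1152, 1997 and 457 in the control arrays, a 4.37-fold span over the 6 arrays. The knockout arrays lay together, while the controls held both the highest value, in replicate 2, and the lowest, in replicate 3. Over all arrays the log2 fold change was -0.063 ± 0.49 (SE; limma adjusted p = 0.995). Once the array labelled control replicate 3 was left out it was -0.64 ± 0.24, or 1.56-fold lower in the knockout, with a limma unadjusted p of 0.0364 and an adjusted p of 0.802. All 3 knockout values then lay below both control values, but the share of all genes so separated without that array was not counted.

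Its probe sets disagreed in the array labelled control replicate 3. One further probe set read 262, 187 and 279.5 in the knockout arrays, against 222, 343 and 177 in the control arrays, with control replicate 2 again the highest and replicate 3 the lowest. Another read 144, 104 and 148 in the knockout, against 100.2, 105 and 391 in the control, with a log2 fold change of -0.30 over all arrays and 0.35 without the array labelled control replicate 3, so that the array that was lowest by the first probe set was highest by this one. This probe set was above background in 3 arrays only, so its value of 0.35 rests on levels near background. The remaining 3 probe sets of Per3 read 44.0 to 60.5, below background.

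**Figure D2:**
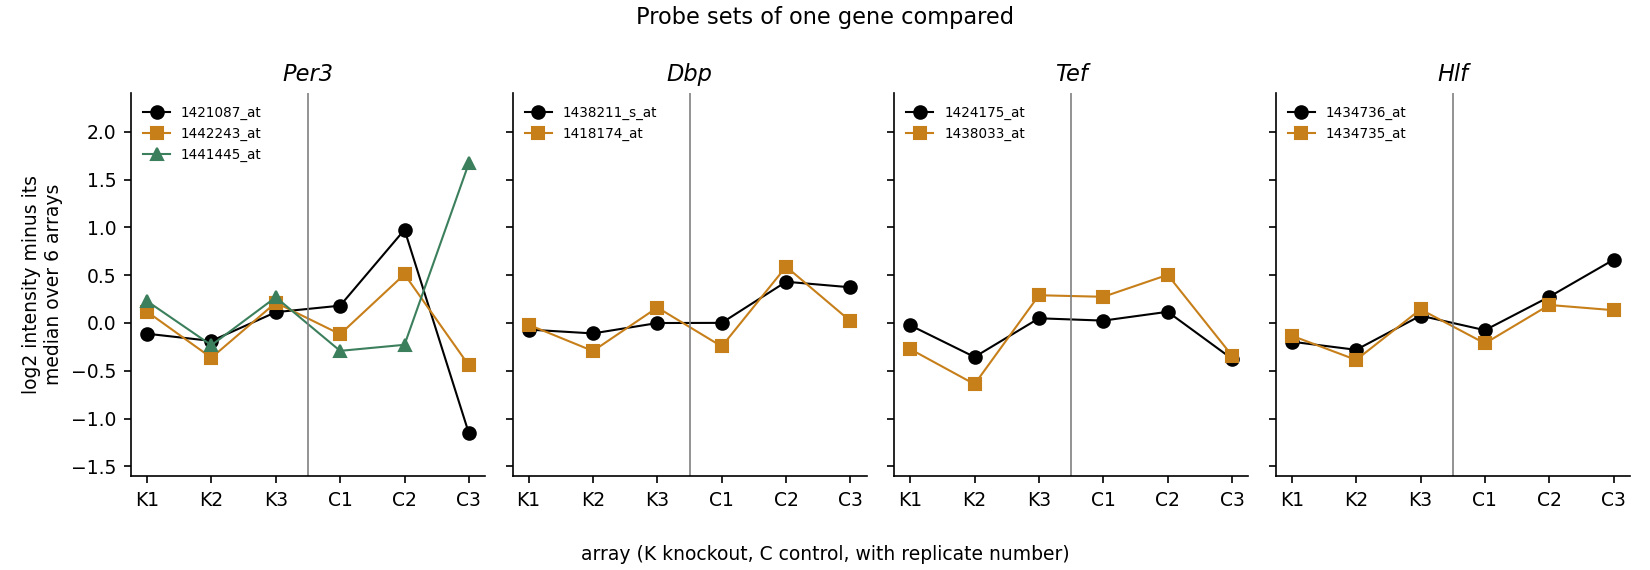
Lines show the log2 intensity of each probe set with at least 1 array above background, minus its own median over the 6 arrays, for the 4 members that had more than 1 such probe set. Both probe sets of Dbp and of Tef have their high point in control replicate 2, the brighter one of Hlf has it in control replicate 3, and the 3 probe sets of Per3 part widely in control replicate 3.

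The cryptochromes, which bind the Clock and Arntl pair and block it, had higher mean values in the knockout, with overlap. Cry1 read 526, 605 and 451 in the knockout arrays and 456, 543 and 419 in the control arrays. The arrays of the 2 groups were interleaved, and the log2 fold change was 0.16 ± 0.19 (SE; 95% confidence interval -0.29 to 0.60). Cry2 read 269, 486 and 293 in the knockout arrays and 238, 345 and 176 in the control arrays. Knockout replicate 2 stood above all others and the remaining knockout values lay among the controls, with a log2 fold change of 0.47 ± 0.33. Both had an adjusted p of 0.971 in limma. That array labelled control replicate 3 was the lowest of the 6 for both genes, and without it the log2 fold changes were 0.073 for Cry1 and 0.23 for Cry2.

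The 2 REV-ERB genes, repressors of Arntl, differed from each other in pattern. Nr1d1 read 367, 624 and 480.2 in the knockout arrays and 699, 565 and 592 in the control arrays. The controls lay close together, knockout replicates 1 and 3 lay below all of them, and knockout replicate 2 lay among them. The log2 fold change was -0.36 ± 0.23 (SE; adjusted p = 0.971 in limma) and -0.39 ± 0.24 without the array labelled control replicate 3. When knockout arrays were left out singly it was -0.17 without replicate 1 and -0.55 without replicate 2 (unadjusted p 0.466 and 0.0410 in limma, neither past adjustment).

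Nr1d2 read 1928, 1784 and 2024 in the knockout arrays and 1758, 2206 and 1233 in the control arrays. The knockout values fell inside the range of the controls, and the log2 fold change was 0.18 ± 0.21 (SE; limma adjusted p = 0.971). That sign rested on the array labelled control replicate 3, and without it the value was -0.045 ± 0.13. A second probe set of Nr1d2 read 56.1 to 104 and was below background in every array.

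Among the PAR bZIP output factors Dbp was the one without overlap. Its brightest probe set read 3151, 3065 and 3305 in the knockout arrays and 3308, 4458 and 4282 in the control arrays. The 3 knockout values were tightly grouped, control replicate 1 lay just above them, and the other 2 controls were clearly higher. Separation in the lower direction was found in 5.68% of all genes. The log2 fold change was -0.33 ± 0.14 (SE; 95% confidence interval -0.65 to -0.0042), or 1.26-fold lower in the knockout, with a limma unadjusted p of 0.0478, and an adjusted p of 0.971. The exact permutation p was 0.1, again the lowest possible. The value was -0.28 ± 0.14 without the array labelled control replicate 3. Dbp had one more probe set, which overlapped between the groups, with 482.5, 399 and 547 in the knockout arrays and 412, 735 and 495 in the control arrays, and a log2 fold change of -0.17.

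Tef, whose protein binds the same D-box as Dbp, read 1428, 1135 and 1502 in the knockout arrays and 1477, 1575 and 1119.5 in the control arrays. The lowest values lay in knockout replicate 2 and control replicate 3, the 2 arrays with raised Gapdh ratios, and the log2 fold change was -0.033 ± 0.18 (SE; adjusted p = 0.992 in limma). Hlf read 135.0, 127 and 163 in the knockout arrays and 147, 187 and 245 in the control arrays. Knockout replicate 3 stood above control replicate 1, so the groups overlapped, and the log2 fold change was -0.42 ± 0.26 (SE; adjusted p = 0.971 in limma). The values without the array labelled control replicate 3 were -0.18 ± 0.15 for Tef and -0.23 ± 0.20 for Hlf. A dimmer probe set of Tef read 135, 105 and 199.9 in the knockout arrays, against 198, 232 and 129 in the control arrays, and a dimmer one of Hlf read 101, 84.9 and 122 in the knockout, against 95.7, 126 and 122 in the control. Both overlapped between the groups and had the same sign as the brighter ones, at -0.35 and -0.16.

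**Figure D3:**
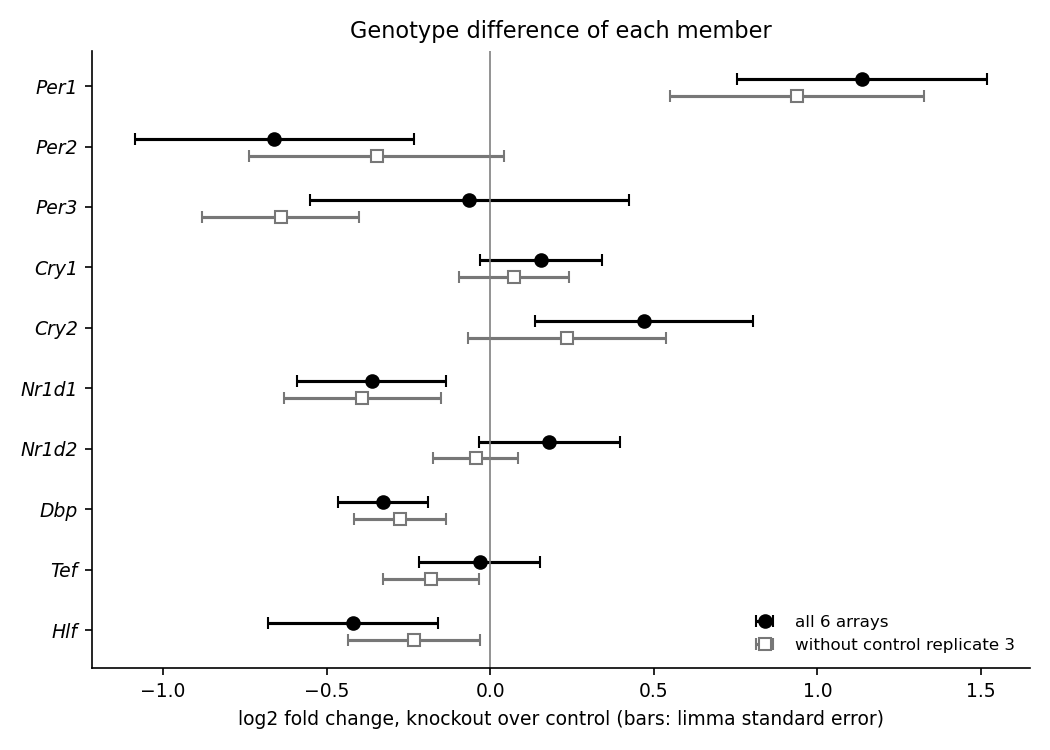
Points give the log2 fold change of each member, knockout over control, with bars of 1 limma standard error, over all 6 arrays (filled circles) and without the array labelled control replicate 3 (open squares). Per1 stands apart on the right at 1.14 and 0.94, Per3 moves to -0.64 without that array, and Nr1d2 moves across 0.

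How far a gene ranged between arrays was read as its span, the difference between its highest and lowest log2 value. The median span of the members was 0.94 on the log2 scale, against 0.77 for the 8589 genes with a mean above background and 0.51 for all genes. Over the 5 arrays other than the one labelled control replicate 3 the median spans were 0.74 for the members, 0.47 for genes above background and 0.33 for all genes. Over all 6 arrays the spans ran from 1.41-fold for Tef, 1.44-fold for Cry1 and 1.45-fold for Dbp to 3.35-fold for Per1, 3.51-fold for Per2 and 4.37-fold for Per3. Without the array labelled control replicate 3 they ran from 1.25-fold for Nr1d2 to 3.35-fold for Per1, with Per2 at 2.55-fold and Per3 at 2.24-fold.

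The values were also read array by array, each gene against its own median, as a description without a test. Control replicate 2 was above the median in 8 of 10 members and was the highest array for Per3, Dbp, Tef and Nr1d2. In the same array Arntl, Clock and Nfil3, the repressor that competes with Dbp for D-boxes, lay below their medians, at -0.45, -0.34 and -0.42. Others of the activator arm and antiphase genes did not, with Arntl2 at 0.43 and Rora at 0.41 above the median. Npas2 and Rorb, both with means below background, lay close to it, at -0.041 and -0.086. Knockout replicate 2 was the lowest array for Per2, Dbp and Hlf and the highest for Cry1, Cry2, Arntl and Npas2, a Clock paralogue, with Arntl at 0.42 and Npas2 at 0.77 above the median. These 2 arrays lay on opposite sides of the median for Arntl and for all members other than Cry1 and Cry2. For Per1 (0.064 and -0.064) and Nr1d1 (0.11 and -0.034) knockout replicate 2 was the one above, and both genes lay close to the median there. The share of all genes on opposite sides in these 2 arrays was not counted, so no pattern is read from these positions. Both arrays had a female pattern. Only knockout replicate 2 of the pair had a raised Gapdh ratio. With that ratio as a covariate in the genotype fit the log2 fold change of Per3 was -0.41, that of Tef -0.15 and that of Nr1d2 0.038, against -0.063, -0.033 and 0.18 without it. The ratio was highest in the array labelled control replicate 3 (10.5), so this fit does not bear on knockout replicate 2 alone. Leaving out the array labelled control replicate 3 gave -0.64, -0.18 and -0.045 for these 3 genes.

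The other arrays were read in the same way. Knockout replicates 1 and 3 and control replicate 1 lay within 0.5 log2 units of the median for all members but Nr1d1 in knockout replicate 1 (-0.66) and Per1 in control replicate 1 (-1.45). The array labelled control replicate 3 was the lowest for Per3, Cry1, Cry2, Tef and Nr1d2 and the highest for Per2 and Hlf, and 6 of 10 members lay more than 0.5 log2 units from their median there. A single order of the samples along the day could not be read from these values. Neither genotype held the high or the low end as a group for any member other than Per1 and Dbp.

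**Figure D4:**
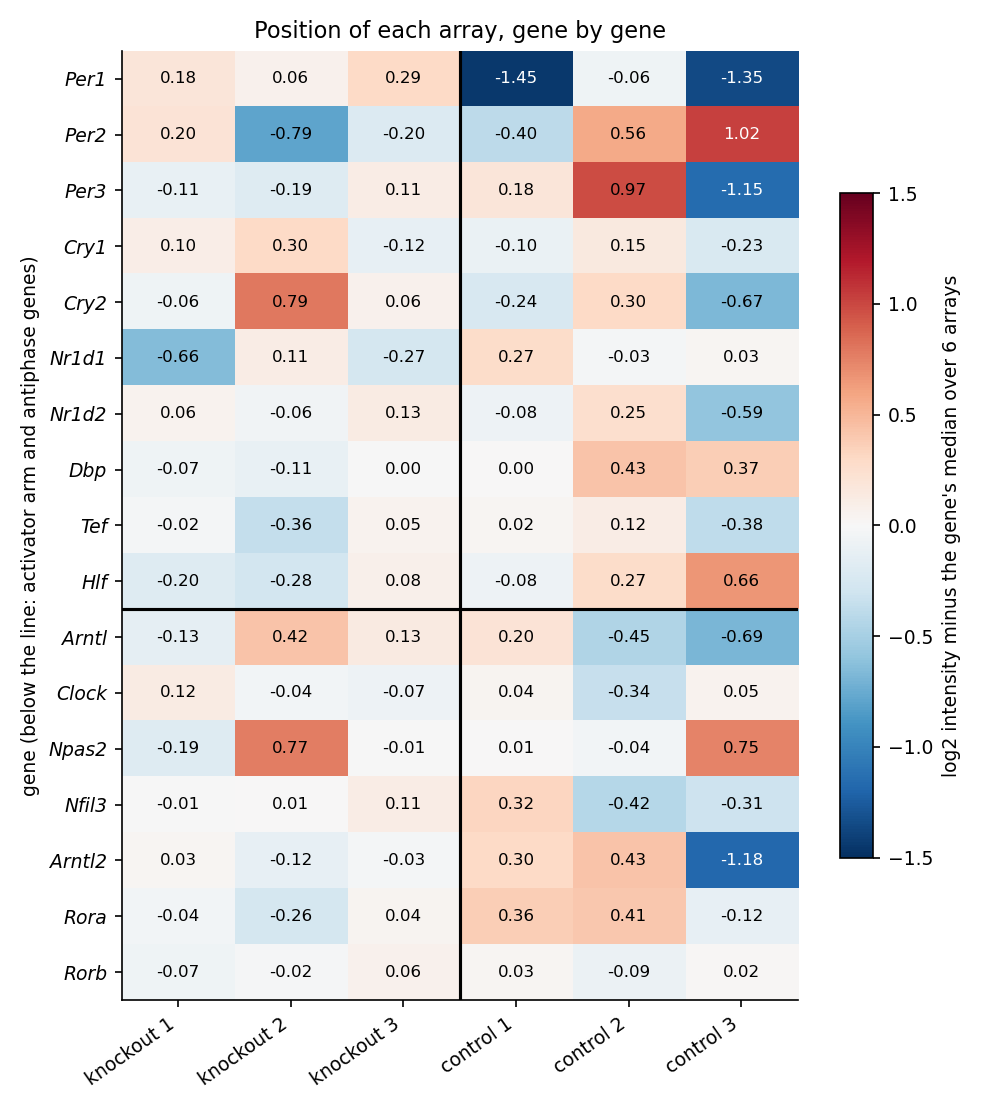
Rows are the 10 members and, below the line, 7 activator arm and antiphase genes, columns are the arrays with knockout on the left, and each cell gives the log2 intensity minus the gene's median over the 6 arrays. Control replicate 2 is above 0 for most members and at -0.45 for Arntl, while knockout replicate 2 is at -0.79 for Per2 and 0.42 for Arntl.

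In the activator arm 0 of the 7 measured genes passed, 5 had higher and 2 had lower values in the knockout, and the median log2 fold change was 0.089, against -0.0086 over all genes. Both the count and the median (0.088) were nearly the same without the array labelled control replicate 3. Arntl itself read 109.6, 161 and 132 in the knockout arrays and 139, 87.9 and 74.6 in the control arrays, values close to background. The log2 fold change was 0.45 ± 0.30 (SE; adjusted p = 0.971 in limma) with overlap, because control replicate 1 lay above 2 of the knockout arrays, and 0.27 without the array labelled control replicate 3. Clock had 0.089 ± 0.19, Nfil3 0.17 ± 0.23, and Rora, the receptor that activates Arntl through the element that the REV-ERB proteins occupy, -0.30 ± 0.18. Leaving that array out gave 0.16, 0.088 and -0.47 for these 3 genes. Dimmer probe sets of Rora with any array above background disagreed in sign, at -0.31, 0.46, 0.15, 0.30 and -0.097. Without the array labelled control replicate 3 all of them were lower in the knockout, at -0.25, -0.37, -0.29, -0.19 and -0.63. Arntl2 had 0.11 ± 0.44 with all arrays and -0.41 without the array labelled control replicate 3. Npas2 (-0.048, and 0.21 without that array) and Rorb (0.0067, and 0.022 without it) had means below background.

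Of 12 measured kinases, ligases and further repressors of the clock 8 had higher and 4 lower values, with a median of 0.13, and 0 passed. With the array labelled control replicate 3 left out 8 were again higher, and the median was 0.023. The 4 with the smallest p were Prkaa2, a catalytic subunit of AMPK that marks Cry1 for degradation, at 0.26 ± 0.14 (SE) and without overlap, Gsk3b, a kinase of several clock proteins, at 0.46 ± 0.34, Ciart, a repressor of the Clock and Arntl pair, at 0.38 ± 0.29, and Btrc, a subunit of the ligase that removes Per proteins, at -0.21 ± 0.20. Their values without the array labelled control replicate 3 were 0.13, 0.038, 0.14 and -0.16. All 4 had an adjusted p of 0.971 in limma. The separation seen for Prkaa2 was found in 3.33% of all genes in the higher direction. Dimmer probe sets of Prkaa2 overlapped between the groups, at -0.32 and 0.98, and at -0.26 and 0.19 without the array labelled control replicate 3. Those of Gsk3b that were above background in every array disagreed, at -0.16, 0.32 and -0.011. The one at -0.16 was lower in the knockout without overlap, as were 5.68% of all genes. A dimmer probe set of Btrc, above background in 4 arrays, had the opposite sign at 0.23.

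Of 13 genes listed as clock-controlled in muscle or other tissues 5 had higher and 8 lower values, with a median of -0.039, and 0 passed. Over the 5 arrays other than the one labelled control replicate 3 the count was 3 higher, with a median of -0.10. Klf15, a regulator of amino acid use, had a log2 fold change of 0.85 ± 0.41 (SE), Tsc22d3, a glucocorticoid target, 0.38 ± 0.22, and Pdk4, the kinase that inhibits pyruvate dehydrogenase, -0.16 ± 0.10. The uncoupling protein gene Ucp3 had -1.14 ± 0.20, the lowest of the list and without overlap, as 5.68% of all genes in the lower direction. These 4 stood at 0.49, 0.16, -0.10 and -1.32 with the array labelled control replicate 3 left out. A dimmer probe set of Ucp3, above background in 3 arrays, overlapped between the groups, at -0.34. Genes induced by the glucocorticoid and cAMP signals that also act on Per1 were split, 6 higher and 4 lower with a median of 0.15, and 5 were higher with a median of 0.047 without the array labelled control replicate 3. Nr4a1 (1.33 ± 0.28) and Sgk1 (0.33 ± 0.12) lay higher in the knockout without overlap, as did 3.33% of all genes, while the glucocorticoid target Fkbp5 had -0.52 ± 0.24. With that array left out the values were 1.33, 0.31 and -0.43. The adjusted p of every gene named from these lists was 0.971 in limma.

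Similarity of pattern was measured as the root mean square difference between log2 values, each gene centred on its own mean over the 6 arrays, among genes above background. For Dbp the nearest of 8588 genes were Plcd1, Psmb8, Mypop and Trmt13, at 0.056 to 0.066 (0.024 to 0.071 without the array labelled control replicate 3). Its family member Hlf ranked 351 at 0.16, and Tef ranked 2932 at 0.29. For Per2 the nearest genes were Atr, Tmem164, Ier3 and Fam229b, at 0.21 to 0.24 (0.22 to 0.26 without it), and Hlf ranked 81 at 0.37 and Dbp 361 at 0.44. Without the array labelled control replicate 3, Hlf ranked 774 and Dbp 580 to Per2, and Per3 was the nearest member at rank 428 (against 7678). For Nr1d1 the nearest genes were Nbas, Pdxk, Ppargc1a and Cpsf1, at 0.082 to 0.12 (0.090 to 0.13 without that array), and the nearest member, Dbp, ranked 2132 at 0.33.

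Over the 5 arrays other than the one labelled control replicate 3 some members ranked closer to Dbp and others farther. The distance of Nr1d2 to Dbp was then 0.12 (rank 336, against 4951 with all arrays), that of Hlf 0.090 (rank 84) and that of Per3 0.22 (rank 3712, against 7732). Nr1d1 ranked 7255 at 0.35 (against 3906), Per2 7177 (against 5865), Cry1 4679 (against 3780) and Cry2 7770 (against 7201). Per1 stayed far from Dbp, at 0.82 (rank 8305) with all arrays and 0.67 (rank 8446) without that one.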

How the data were processed

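The authors deposited 1 linear intensity per probe set and array. GCOS and RMA are the tools that the submitters' processing notes name, with no version in the sources used here. Values ran from 37.2 to 16069 and array medians from 56.6 to 58.6, which is how the linear scale was recognised, and any later rescaling by the authors is unknown. RMA compresses differences of dim probe sets. For genes with several single-gene probe sets the one brightest on average was used. After a log2 transform with no pseudocount, limma 3.58.1 (R 4.3.3) compared the groups with no covariate and a trended eBayes. Tests were two-sided and adjusted by Benjamini-Hochberg across 18194 genes (threshold 0.05). The fit was checked on simulated data. The number of arrays limits the precision. Fold changes are knockout over control.

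The members and lists were chosen with earlier results of these data known. All 10 members are named, all activator arm genes, the 4 genes with the smallest p of each other list, and the 4 genes nearest in pattern to Dbp, Per2 and Nr1d1. As alternatives, the replicate number was used as a block, and scaling, an offset, variance models, array weights, dim genes, probe set choice, sex pattern, the Gapdh ratio and leaving out arrays were tried. Promoter sequences are RefSeq's for GRCm38.p6, matched by symbol.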

Additional observations from a re-analysis of the deposited data

How the results depend on the processing

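Under all 20 alternatives tried, limma called 0 members and 0 genes at an adjusted p under 0.05. The direction of Per1 (log2 fold change 0.89 to 1.64), Per2 (-1.06 to -0.070), Dbp (-0.46 to -0.21), Hlf (-0.60 to -0.16) and Nr1d1 (-0.62 to -0.17) was the same in each of them. Several alternatives could not change a direction, because the estimate stays the same in this balanced design. These were the replicate block, sex pattern as a covariate over all arrays, eBayes without a trend, dropping dim genes and fitting every probe set. When single arrays were left out, Per1 ranged from 0.89 (without control replicate 1) to 1.58 (without control replicate 2), Per2 from -1.06 to -0.35, Nr1d1 from -0.55 (without knockout replicate 2) to -0.17 (without knockout replicate 1), Cry1 from 0.051 to 0.26, Cry2 from 0.21 to 0.72, Per3 from -0.64 to 0.42, Tef from -0.18 to 0.090 and Nr1d2 from -0.045 to 0.37. Per3, Tef and Nr1d2 turned sign among these. With sex pattern as a covariate and without control replicate 3, Nr1d2 was at -0.035. In the alternatives chosen after seeing the data, Cry1 was at -0.032 and Cry2 at -0.030 without knockout replicate 2 and control replicate 3, and Per3 was at 0.49 and Tef at 0.19 over the arrays with a male pattern. The cause of these turns was not tested beyond the arrays left out. The labels do not say whether the replicate numbers pair the samples. Same-numbered arrays shared a sex pattern, and the correlations of their deviations were 0.19, -0.15 and -0.11. Those of the other pairs ran from -0.22 to 0.22, so these values do not decide whether the samples were paired. With the replicate number as a block 0 genes and 0 members were called. The number of genes with an unadjusted p under 0.05 in limma was then 377, against 469. That number was 284, 276 and 284 without knockout replicates 1 to 3, and 1090 without control replicate 3. Array weights gave 1854. Arntl, Per2 and, in 2 control arrays, Per1 lie near background, where differences are compressed.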
